A study of Mus musculus with 6 samples.

Results

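The transcripts of 10 Wnt ligands, Wnt1, Wnt2, Wnt3, Wnt3a, Wnt4, Wnt5a, Wnt6, Wnt7a, Wnt7b and Wnt9a, were followed in whole mouse embryos of 10.5 days of gestation from diabetic and from normal pregnancies. They were read at every probe set that the platform's table pairs with exactly 1 of these symbols, which gave 19 of the 45101 probe sets of the Affymetrix Mouse 430 2.0 array, for 10 of the 18194 genes so named. The diabetes-exposed embryos came from FVB females, treated at 7 to 9 weeks of age with 2 injections of 100 mg streptozotocin per kg body weight, a toxin of the pancreatic beta cells that make insulin, and their blood glucose was above 250 mg per dl. The control embryos were FVB embryos from females that were not diabetic. Each group held 3 pools, each pool held equal amounts of RNA from 3 embryos of different pregnancies, and the embryos used were of normal appearance by the study's methods. A pool was hybridised to 1 array, so that each group comprised 9 embryos on 3 arrays, and p-values measure the spread between pools, not between single embryos.

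Wnt proteins are secreted, lipid-modified signals that act over short distances. In the canonical branch, a ligand bound to a Frizzled receptor and an Lrp5 or Lrp6 coreceptor keeps beta-catenin from being degraded, and beta-catenin then acts with TCF and LEF factors on target genes. In the other branches, ligands such as Wnt5a act through receptors that include Ror2 on cell polarity and movement. At the stage studied, each ligand is made in its own restricted domain (the isthmus, the roof plate of the neural tube, the tail bud, the limb ectoderm, the nephric region and others), so that a whole-embryo signal averages over many cells that do not make it. In such samples fewer cells of a type and less RNA per cell cannot be told apart.

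Of the 19 probe sets, 17 passed the filter on dim signals, and all 10 ligands had at least 1 that did. Of the 17, 7 were lower and 1 was higher in the diabetes-exposed pools at an adjusted p under 0.05, and 9 were not called. Over all 30025 tested probe sets 21.8% were called lower and 14.4% higher. With each gene read at its brightest tested probe set, Wnt4, Wnt5a, Wnt7a, Wnt7b and Wnt9a were lower, Wnt2 was higher, and Wnt1, Wnt3, Wnt3a and Wnt6 were not called, against 19.9% lower and 17.6% higher among 13956 genes. The median log2 fold change (diabetes-exposed over control) of the 17 probe sets was -0.41, beside -0.05 over all tested probe sets. It was -0.44 for the 10 genes at 1 probe set each, beside -0.00025 over all genes. Of the 17, 14 had a log2 fold change under 0, and 3 of the lower ones differed at least 2-fold, where the background was 11%. The higher one, Wnt2, differed by less than 2-fold, and 1.24% of all tested probe sets were called higher by at least 2-fold. The groups did not overlap at 9 probe sets that were lower and 2 that were higher, where 28% and 21.9% of all tested probe sets did the same.

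**Figure D1:**
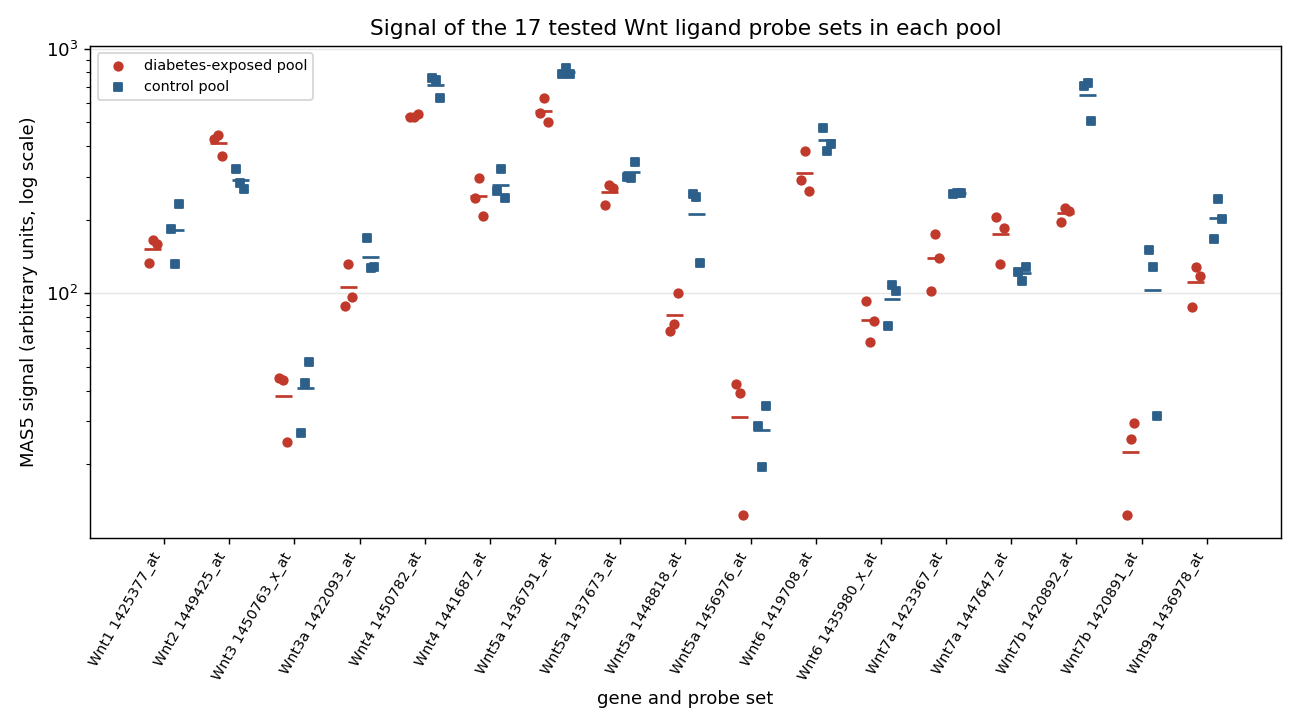
Signal of the 17 tested Wnt ligand probe sets in each pool, on a log scale, with diabetes-exposed pools to the left (circles) and control pools to the right (squares) of each tick, and the mean of 3 pools as a line. At Wnt7b 1420892_at the 3 exposed pools lie between 196.3 and 224.2 and the 3 control pools between 505.9 and 722.8, and at Wnt2 1449425_at the exposed pools lie above the control pools.

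Of the called ligands, Wnt5a and Wnt7b have no window in the RefSeq promoter table (GRCm38.p6). The 250 bases before the transcription start are shown for the others, Wnt2, Wnt4, Wnt7a and Wnt9a. Each is written 5′ to 3′ on the strand of its gene, with the HIF1 core (ACGTG or GCGTG) and the TCF and LEF core (CTTTGA), each searched on both strands, in capitals. HIF1 is a factor of the response to low oxygen, and TCF and LEF factors are those of the canonical Wnt pathway itself.
Wnt2, chr6:18030446-18030695, minus strand: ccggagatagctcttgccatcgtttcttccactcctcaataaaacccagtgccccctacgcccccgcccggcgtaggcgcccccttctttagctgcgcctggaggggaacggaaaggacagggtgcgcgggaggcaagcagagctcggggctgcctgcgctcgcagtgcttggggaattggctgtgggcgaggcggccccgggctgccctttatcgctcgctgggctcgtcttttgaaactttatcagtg
Wnt4, chr4:137277385-137277634, plus strand: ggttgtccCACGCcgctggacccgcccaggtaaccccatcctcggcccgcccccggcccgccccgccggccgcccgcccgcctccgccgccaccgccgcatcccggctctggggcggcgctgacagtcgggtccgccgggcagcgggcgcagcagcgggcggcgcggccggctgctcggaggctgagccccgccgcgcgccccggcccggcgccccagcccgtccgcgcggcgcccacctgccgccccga
Wnt7a, chr6:91411354-91411603, minus strand: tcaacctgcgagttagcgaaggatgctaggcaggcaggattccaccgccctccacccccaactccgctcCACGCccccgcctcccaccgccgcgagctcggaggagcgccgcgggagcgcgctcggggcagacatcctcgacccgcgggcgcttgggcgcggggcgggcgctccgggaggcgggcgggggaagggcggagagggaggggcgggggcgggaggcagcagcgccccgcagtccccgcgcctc
Wnt9a, chr11:59306680-59306929, plus strand: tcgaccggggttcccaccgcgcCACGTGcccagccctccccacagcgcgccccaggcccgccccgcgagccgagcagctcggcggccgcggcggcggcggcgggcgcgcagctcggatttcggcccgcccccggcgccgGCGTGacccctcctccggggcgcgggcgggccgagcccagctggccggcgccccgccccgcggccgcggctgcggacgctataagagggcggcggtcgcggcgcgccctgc
The window of Wnt9a held 3 matches to the HIF1 core, of which a pair are the same 6 bases read on both strands. Those of Wnt4 and Wnt7a held 1 match each, and that of Wnt2 held 0. Of the 8 members with a window, 5 held the HIF1 core, where 38.6% of 32851 windows of the same length did, and 0 held the TCF and LEF core, where 13.8% of windows did. The 8 windows had between 63.6% and 87.6% G and C, above the median of 52.4%, and the HIF1 core itself is rich in G and C. A match describes letters in the window, and its absence says nothing of either factor.

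The arrays differed in their labelling controls. The poly-A spikes, at 8 pairs of probe sets, had a mean ratio of 3' to middle signal of 6.56, 3.47 and 7.00 in the diabetes-exposed arrays and 2.10, 2.07 and 2.52 in the control arrays, where a high ratio means that less of the signal comes from parts of a transcript far from its 3' end. The 3' to 5' ratio of beta-actin was 10.1, 3.09 and 10.3 in the exposed arrays and 1.71, 1.76 and 2.19 in the control arrays. Neither pair of groups overlapped, each with an exact permutation p of 0.1, the smallest that 3 against 3 arrays can give. Within the groups, 14 of the 17 ligand probe sets (82.4%) had more signal where the spikes had relatively more middle signal, beside 54.5% of all tested probe sets, 80.1% of those called lower and 15.5% of those called higher. With this ratio as a covariate 0 of the 17 were called by limma (1 lower and 1 higher at an unadjusted p under 0.05), and 1.11% of all tested probe sets were lower and 0.0966% higher. It moves with the groups, so its part cannot be told apart from that of exposure in this fit. Exposed replicate 2 had the lowest ratio of its group, and with it alone set against the 3 control pools 1 of the 17 was lower (5 lower and 1 higher at an unadjusted p under 0.05), where 12.1% of all tested probe sets were lower and 4.89% higher. That fit assumes that the lone pool varies as the controls do. The arrays were scaled to 1 average signal, while their median signal was 77.6, 78.9 and 74.1 in exposed pools and 103.3, 99.9 and 82.5 in control pools. Centring on the median shifted all genes upward, their median log2 fold change becoming 0.32.

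**Figure D2:**
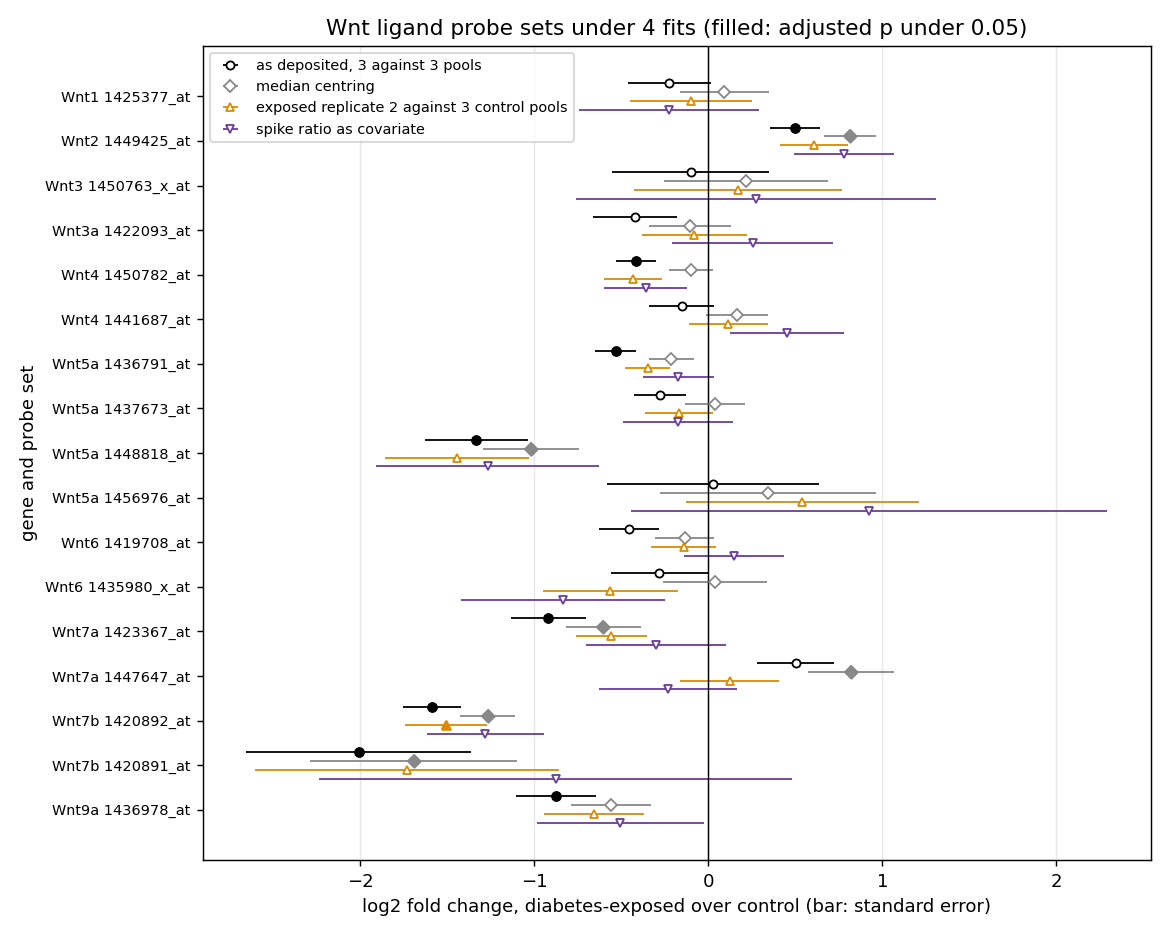
Log2 fold change, diabetes-exposed over control, of the 17 tested probe sets under 4 fits, with bars for 1 standard error and filled symbols for an adjusted p under 0.05. Wnt7b 1420892_at was at -1.58 in the comparison of 3 with 3 pools, -1.27 after median centring, -1.51 with exposed replicate 2 alone and -1.28 when the spike ratio entered as a covariate, while Wnt2 1449425_at was above 0 in all 4.

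Wnt7b was the ligand with the largest called difference at the gene level. It is required for the fusion of the chorion with the allantois and for lung growth, and it acts with Wnt7a from the neural tube on the ingrowing blood vessels of the brain. Its brighter probe set, 1420892_at, gave 196.3, 224.2 and 217.6 in diabetes-exposed pools and 705.3, 722.8 and 505.9 in control pools. All exposed pools were below all control pools, with the 3 exposed pools close together and control replicate 3 the lowest of its group. The means were 212.7 ± 14.6 and 644.7 ± 120 (SD, n = 3 each), 3.00-fold lower in exposed pools, with a log2 fold change of -1.58 (SE 0.17, 95% interval -1.96 to -1.20, adjusted p = 0.000538). With each pool left out in turn it stayed lower at -1.75 to -1.49, with adjusted p from 0.000156 to 0.00527. It was the ligand probe set called with exposed replicate 2 alone (-1.51, adjusted p = 0.00911), and the call ended with the spike covariate (-1.28, adjusted p = 0.12) and with the methods' t-test after adjustment (0.0738), in a range of 2.51e-05 to 0.12 over 19 alternatives.

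The dimmer Wnt7b probe set, 1420891_at, gave 12.4, 25.5 and 29.5 in exposed pools and 150.4, 128.2 and 31.5 in control pools. The groups did not overlap, but control replicate 3 lay only just above the highest exposed pool. Its log2 fold change was -2.01 (SE 0.65, 95% interval -3.48 to -0.54, adjusted p = 0.0393), or 4.02-fold lower. Control replicate 3 also had the highest spike ratio of the control arrays. Without it the value was -2.72 (adjusted p = 0.00604), and the call was lost without control replicate 1 (0.156), control replicate 2 (0.147), exposed replicate 1 (0.12) or exposed replicate 3 (0.0585) and with the spike covariate (-0.88, 0.828). It held under 8 of 18 alternatives, in a range of 0.00604 to 0.828.

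Wnt7a, which patterns the dorsal side of the limb from its ectoderm and acts in the neural tube beside Wnt7b, was read differently by its probe sets. At 1423367_at the signals were 102.4, 174.4 and 140 in exposed pools and 254.8, 257.1 and 257.6 in control pools. All exposed pools were lower, while the control pools were nearly equal. The log2 fold change was -0.92 (SE 0.22, 95% interval -1.41 to -0.43, adjusted p = 0.0109), 1.89-fold lower, and all 6 fits without 1 pool called it, at -1.10 to -0.72. The call ended after quantile normalization (-0.60, adjusted p = 0.0553), with exposed replicate 2 alone (-0.56, adjusted p = 0.113), with the spike covariate (-0.30, adjusted p = 0.80) and by the methods' t-test after adjustment (0.158), in a range of 0.00237 to 0.80 over 19 alternatives. With the tested Wnt7a probe sets averaged it was -0.21 (adjusted p = 0.304). The exposed pool with the lowest spike ratio, replicate 2, had the highest Wnt7a signal of its group.

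At the other tested Wnt7a probe set, 1447647_at, the signals were 205.9, 131.5 and 185.2 in exposed pools and 122.2, 112.2 and 128.6 in control pools. Here every exposed pool was higher, exposed replicate 2 by a small margin, and the log2 fold change of 0.50 was not called (SE 0.22, 95% interval -0.00079 to 1.01, adjusted p = 0.111). It was called higher after median centring (0.82, adjusted p = 0.0202), quantile normalization (0.83, 0.0261), loess normalization (0.72, 0.0398) and without exposed replicate 2 (0.69, 0.0259). It turned to -0.23 with the spike covariate (adjusted p = 0.848, in a range of 0.0202 to 0.848). On the same arrays the log2 difference between the 2 probe sets, 1423367_at minus 1447647_at, was -1.01, 0.41 and -0.40 in exposed pools and 1.06, 1.20 and 1.002 in control pools. These did not overlap, and the groups differed by -1.42 with an exact permutation p of 0.1, adjusted to 0.4 over 10 such pairs within 5 ligands. The platform table pairs both with Wnt7a alone, and where each lies in the transcript was not analysed here. A further Wnt7a probe set, 1458334_at, was under the filter, with 11.4, 2.1 and 2.2 in exposed pools and 2.7, 21.8 and 3 in control pools.

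Adgra2, a membrane protein that with Reck lets brain vessels respond to Wnt7a and Wnt7b, was the clearest lower gene of the list of Wnt secretion and processing. It gave 312.8, 326.9 and 260.7 in exposed pools and 1002.2, 1045.8 and 993.1 in control pools. The groups lay far apart, with a log2 fold change of -1.76 (SE 0.12, adjusted p = 0.000177), and it remained called with the spike covariate (-1.48, adjusted p = 0.0312). Its partner Reck, in the same list, was not called (0.24, SE 0.10, adjusted p = 0.112), and its groups overlapped. Adgra2 and Reck stand in this list although they act in the cells that respond.

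Wnt5a, which drives the outgrowth of limbs, tail and face and signals largely outside the beta-catenin branch, had 4 tested probe sets. The brightest, 1436791_at, gave 543.4, 630.4 and 500.9 in exposed pools and 787.7, 831.6 and 788.9 in control pools. The groups did not overlap, and the log2 fold change was -0.53 (SE 0.12, 95% interval -0.80 to -0.26, adjusted p = 0.0087), 1.44-fold lower, called in all 6 fits without 1 pool. It was not called after median centring (-0.21, adjusted p = 0.206) or quantile normalization (-0.31, 0.0546), with exposed replicate 2 alone (-0.35, 0.12), with the spike covariate (-0.17, 0.766) or by the methods' t-test after adjustment (0.115), in a range of 0.00164 to 0.766 over 19 alternatives.

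The probe set 1448818_at of Wnt5a gave 70.4, 74.8 and 100.1 in exposed pools and 254.1, 248.6 and 133.3 in control pools. All exposed pools were lower, and control replicate 3 was again well below the other controls. The log2 fold change was -1.33 (SE 0.30, 95% interval -2.01 to -0.66, adjusted p = 0.00872), 2.52-fold lower, with -1.64 to -1.17 when each pool was left out. It was called under 16 of 19 alternatives, and not with exposed replicate 2 alone (-1.44, adjusted p = 0.0568), with the spike covariate (-1.27, 0.406) or by the methods' t-test after adjustment (0.123), in a range of 0.00325 to 0.406.

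The remaining Wnt5a probe sets were not called. At 1437673_at the signals were 229.7, 278 and 268.5 in exposed pools and 297.9, 296.5 and 344.6 in control pools, lower in each exposed pool, with a log2 fold change of -0.28 (95% interval -0.61 to 0.06, adjusted p = 0.184). At 1456976_at they were 42.5, 39.1 and 12.4 in exposed pools and 28.6, 19.6 and 34.7 in control pools, overlapping widely (0.03, 95% interval -1.35 to 1.41, adjusted p = 0.977). On the same arrays the log2 difference 1437673_at minus 1448818_at was 1.71, 1.89 and 1.42 in exposed pools and 0.23, 0.25 and 1.37 in control pools. The groups differed by 1.06 without overlap, by a small margin at control replicate 3, with an exact permutation p of 0.1, adjusted to 0.4. The other 8 within-ligand pairs overlapped between groups.

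**Figure D3:**
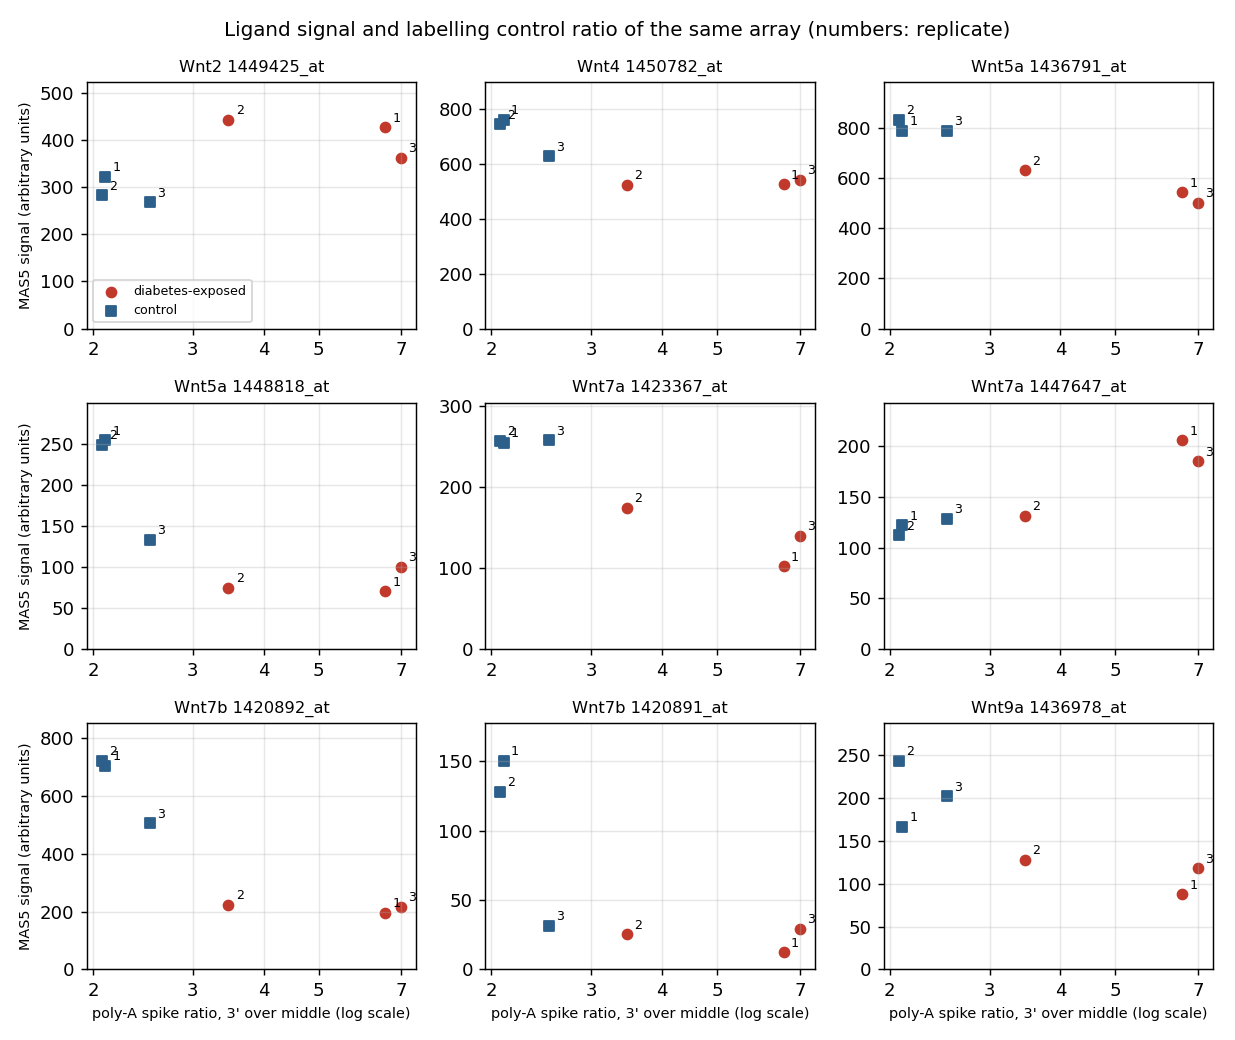
Signal of 9 Wnt ligand probe sets in each pool (vertical axes, arbitrary units from 0) against the poly-A spike ratio of the same array (horizontal axes, log scale), with replicate numbers beside the points, diabetes-exposed pools as circles and control pools as squares. Control replicate 3 has a ratio of 2.52, against 2.10 and 2.07 in the other controls. It is the lowest control pool at Wnt7b, at Wnt5a 1448818_at, at Wnt4 and at Wnt2. It is the highest control pool at Wnt7a, and lies between the other controls at Wnt9a and at Wnt5a 1436791_at. Exposed replicate 2, at 3.47, is the exposed pool nearest to the controls at Wnt7a, Wnt9a, Wnt5a 1436791_at and the brighter Wnt7b probe set. It is the farthest from them at Wnt2 and, by a small margin, at Wnt4 1450782_at.

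Wnt9a, which takes part in forming the joints of the skeleton, gave 88, 127.8 and 117.7 at 1436978_at in exposed pools and 166.5, 243.3 and 202.1 in control pools. All exposed pools were lower, with a log2 fold change of -0.88 (SE 0.23, 95% interval -1.40 to -0.35, adjusted p = 0.0174), or 1.84-fold lower. The call was lost without exposed replicate 1 (adjusted p = 0.0576) or control replicate 2 (0.0771), after each of the 3 other scalings (-0.66 to -0.55, 0.0532 to 0.10), with exposed replicate 2 alone (0.172), with the spike covariate (-0.50, 0.693) and by the methods' t-test after adjustment, in a range of 0.0103 to 0.693 over 19 alternatives. Its other probe set, 1425889_at, was under the filter, at 16.9, 21.4 and 20.3 in exposed pools and 11.7, 23.9 and 22.7 in control pools, which overlapped.

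Wnt4, which induces the tubules of the kidney and acts in the female gonad, gave 527.9, 526.1 and 542.9 at 1450782_at in exposed pools and 762, 745.7 and 628.6 in control pools. The exposed pools were close together and all lower, with a log2 fold change of -0.41 (SE 0.12, 95% interval -0.68 to -0.15, adjusted p = 0.0223). It was called under 9 of 19 alternatives. It was at -0.10 after median centring (adjusted p = 0.56) and -0.19 after quantile normalization (0.248), and the call was lost without exposed replicate 1 (0.065) or 3 (0.0539) or control replicate 1 (0.0943) or 2 (0.0924), in a range of 0.0132 to 0.56. With both Wnt4 probe sets averaged it was -0.28 (adjusted p = 0.115). At 1441687_at, with 245.4, 297.4 and 206.5 in exposed pools and 261.5, 321.9 and 245.3 in control pools, the groups overlapped (-0.15, 95% interval -0.58 to 0.27, adjusted p = 0.568).

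Wnt2 was the ligand that was higher. It is made in the allantois and in the mesoderm around the lung bud, and is known for its part in placental vessels and early lung. It gave 427.6, 442.7 and 362.6 at 1449425_at in exposed pools and 322.1, 283.1 and 268.1 in control pools, without overlap. The log2 fold change was 0.50 (SE 0.14, 95% interval 0.17 to 0.82, adjusted p = 0.0262), 1.41-fold higher. It was above 0 in all 19 alternatives, at 0.44 to 0.81, and larger under median centring (0.81, adjusted p = 0.00188). The call was lost without exposed replicate 1 (adjusted p = 0.0849) or 2 (0.0514) or control replicate 2 (0.0838) or 3 (0.0656), with exposed replicate 2 alone (0.0798), with the spike covariate (0.78, adjusted p = 0.248) and by both tests of the study's methods after adjustment, in a range of 0.00188 to 0.248.

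Wnt1 and Wnt3a, ligands of the dorsal midline, isthmus and tail bud, were not called. Wnt1, required for the midbrain and anterior hindbrain, gave 132.5, 165.6 and 159.4 at 1425377_at in exposed pools and 182.9, 131.4 and 232 in control pools. The groups overlapped, with control pools at both ends of the range (-0.22, SE 0.24, 95% interval -0.77 to 0.32, adjusted p = 0.505). Wnt3a, required for the tail bud and the posterior somites, gave 89, 132.2 and 96.4 at 1422093_at in exposed pools and 168.2, 126.8 and 127.8 in control pools. Here exposed replicate 2 reached into the control range (-0.42, SE 0.24, 95% interval -0.97 to 0.13, adjusted p = 0.208). These intervals leave room for differences of the size seen at Wnt4 and Wnt5a 1436791_at, so that a difference of that size was not detectable for Wnt1 and Wnt3a with these pools.

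Wnt3, which acts in gastrulation and later in the limb ectoderm, gave 45.3, 44.4 and 24.7 at 1450763_x_at in exposed pools and 27, 43.2 and 52.5 in control pools. The groups overlapped over nearly their whole range (-0.10, SE 0.45, 95% interval -1.12 to 0.92, adjusted p = 0.886), and the interval spans more than a 2-fold difference. Wnt6, made in the surface ectoderm, gave 290.3, 380.8 and 261.8 at 1419708_at in exposed pools and 475.5, 382.9 and 407.3 in control pools. The groups just did not overlap, since exposed replicate 2 lay next to the lowest control pool (-0.45, SE 0.17, 95% interval -0.84 to -0.06, adjusted p = 0.071). Without that pool it was called lower (-0.61, adjusted p = 0.0115, in a range of 0.0115 to 0.867 over 19 alternatives). Its other probe set, 1435980_x_at, overlapped, at 92.7, 63.1 and 77.1 in exposed pools and 73.4, 107.7 and 102.2 in control pools (-0.28, adjusted p = 0.471).

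Several of the genes lie beside another ligand gene in the RefSeq annotation. Wnt3a and Wnt9a are neighbouring protein-coding genes on chromosome 11, of which Wnt9a was called lower and Wnt3a was not, and the difference between their changes was not tested. Wnt3 lies beside Wnt9b on chromosome 11, Wnt1 beside Wnt10b on chromosome 15, and Wnt6 beside Wnt10a on chromosome 1. These neighbours are among 9 other Wnt ligands on the array, of which 7 passed the filter. Of the 7, 0 were called by limma, 0 at an unadjusted p under 0.05 and 0 by either test of the study's methods after adjustment. Among all tested genes 19.9% were called lower and 17.6% higher by limma. The median log2 fold change of the 7 was -0.10. They were dim, with the brightest, Wnt11, at 131.3 to 196.3, and standard errors ran from 0.20 (Wnt11) to 0.59 (Wnt10b). Differences of the size called at some of the 10 ligands could thus be missed: Wnt8b was at -0.72 and Wnt9b at -0.50, while Wnt8a was at 0.20 and Wnt10a at 0.22.

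**Figure D4:**
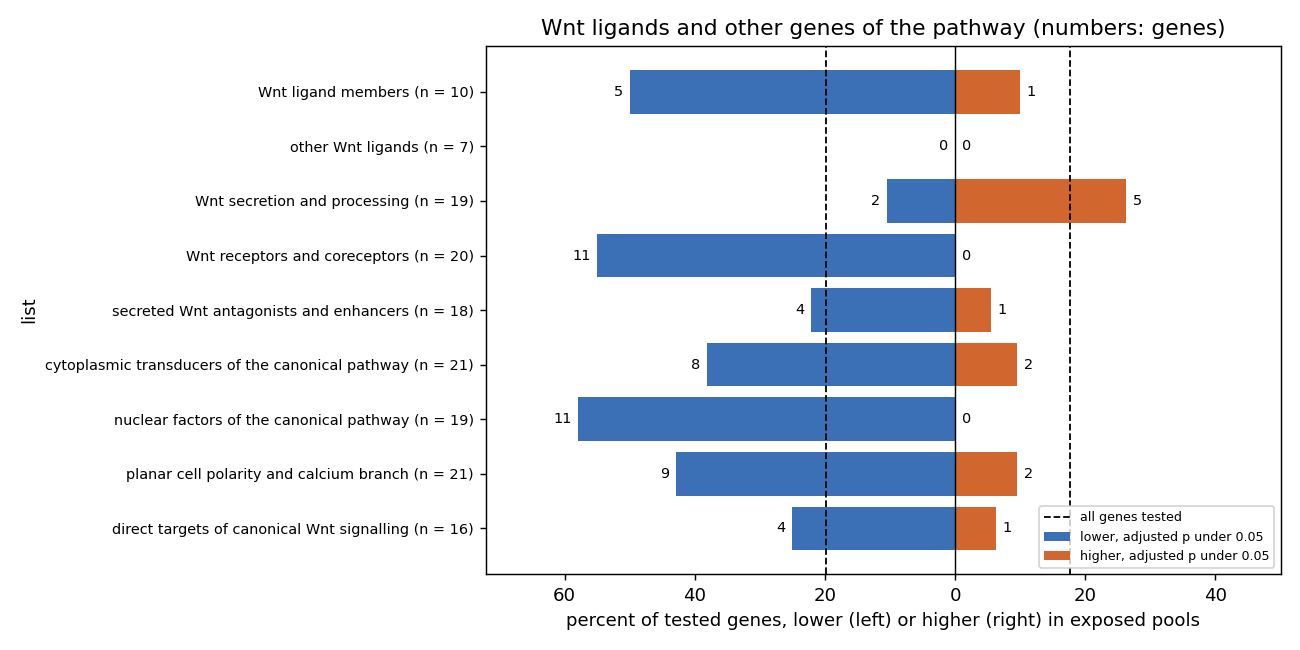
Percent of tested genes called lower (left) or higher (right) in diabetes-exposed pools, for the 10 Wnt ligands and 8 other lists of the pathway, with the number of genes beside each bar and all tested genes as dashed lines. Receptors and nuclear factors each had 11 lower and 0 higher genes, and the list of secretion and processing had 2 lower and 5 higher.

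Outside the 10 ligands, 141 of 156 listed genes of the pathway were tested, each at 1 probe set. Of these, 49 were lower (34.8%, beside 19.9% of all tested genes) and 11 higher (7.8%, beside 17.6%). Their median log2 fold change of -0.25 turned to 0.07 after median centring, where the median of all genes moved to 0.32, and was -0.15 and -0.19 after quantile and loess normalization. Of 19 genes of Wnt secretion and processing, 5 were higher and 2 lower (median 0.18). Vps29, part of the retromer that recycles the Wnt carrier protein Wls, gave 7775.5, 7088.8 and 7842.1 in exposed pools and 4762.5, 4360.1 and 5330.2 in control pools, all exposed pools being higher (0.66, adjusted p = 0.00149). With the spike covariate it was at 0.40 and not called (adjusted p = 0.249), and 1 gene of the list was lower and 0 higher.

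Of 20 tested receptors and coreceptors 11 were lower and 0 higher (median -0.61). The receptor Fzd1 gave 961.3, 999.4 and 935.4 in exposed pools and 2039.7, 2164.4 and 2139.5 in control pools. Its groups lay far apart (-1.13, adjusted p = 0.000195), also with the spike covariate (-1.04, adjusted p = 0.0282), under which 2 of the 20 were lower. Of 18 secreted antagonists and enhancers 4 were lower (22.2%, near the 19.9% of all tested genes) and 1 higher (5.56%, beside 17.6%). Draxin, which inhibits the canonical pathway and guides axons, was at -1.33 (adjusted p = 0.000973), and Rspo3, an R-spondin that enhances Wnt signals, was at 0.41 (adjusted p = 0.0131). With the spike covariate neither was called: Draxin was at -0.80 (adjusted p = 0.253) and Rspo3 at 0.48 (adjusted p = 0.314).

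Among 21 cytoplasmic transducers 8 were lower and 2 higher (median -0.29). Dvl2, a Dishevelled protein that relays the signal from the receptor, was at -1.61 (adjusted p = 0.000267), and Tnks2, a tankyrase that promotes the turnover of Axin, was at 0.31 (adjusted p = 0.0214). The value of Tnks2 was 0.0023 after quantile normalization. With the spike covariate Dvl2 was at -1.33 (adjusted p = 0.0628) and Tnks2 at 0.28 (adjusted p = 0.42), neither called. Of 19 nuclear factors 11 were lower and 0 higher (median -0.47), with the corepressor Tle3 at -1.03 (adjusted p = 0.000246), and -1.13 with the spike covariate (adjusted p = 0.0253). In the planar cell polarity and calcium branch, to which Wnt5a signals, 9 of 21 were lower and 2 higher (median -0.21). There the polarity scaffold Scrib was at -1.69 (adjusted p = 0.000164), and at -1.90 with the spike covariate (adjusted p = 0.0146).

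Of 16 tested direct targets of the canonical pathway, 4 were lower (25%, near the 19.9% of all tested genes) and 1 higher (6.25%, beside 17.6%). Their median was -0.10. Axin2, a feedback inhibitor that is read as a reporter of the pathway, gave 820, 830.8 and 801.1 in exposed pools and 1505.7, 1444 and 1444.3 in control pools. Both groups were tight and lay apart (-0.84, SE 0.09, adjusted p = 0.000504), and the value was close to this with the spike covariate (-0.79, adjusted p = 0.0727). Id2, an inhibitor of helix-loop-helix factors, was the higher one (0.58, adjusted p = 0.00314), at 0.23 and not called with the spike covariate (adjusted p = 0.508). Under that covariate 0 of the 16 targets were called.

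Markers of the tissues that make these ligands were measured on the same arrays. Over all tested genes 19.9% were lower and 17.6% higher. Lmx1b, Msx1, Msx2, Fgf8, Fgf17 and Pax8 stand in more than 1 of the tissue lists, so the counts of these lists are not separate. All 28 markers of the germ layers of a whole embryo passed the filter. Of 12 roof plate and dorsal neural tube markers, beside Wnt1 and Wnt3a, 7 were lower and 0 higher (median -0.52), with the homeobox gene Msx1 at -0.66 (adjusted p = 0.00175). Of 9 midbrain and isthmus markers, 6 were lower and 0 higher (median -0.68), with En2, a homeobox gene of the midbrain and hindbrain, at -1.33 (adjusted p = 0.000572). Of 10 floor plate, notochord and ventral neural tube markers, 6 were lower and 0 higher (median -0.64), and the secreted guidance cue Ntn1 was at -2.10 (adjusted p = 0.000177).

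Beside Wnt5a and Wnt7a, 8 of 15 limb bud markers were lower and 0 higher (median -0.41). Beside Wnt4, 7 of 13 nephric and urogenital markers were lower and 0 higher (median -0.68), with Foxc1, a forkhead factor, at -1.56 (adjusted p = 0.000177). Beside Wnt3a and Wnt5a, 3 of 11 markers of the presomitic mesoderm and tail bud were lower (27.3%, near the 19.9% of all genes) and 0 higher. Their median was -0.13, with the Notch ligand Dll1 at -0.90 (adjusted p = 0.00071). Under median centring the median of the tail bud list was 0.18. Surface ectoderm markers, beside Wnt6 and Wnt7b, went the other way: 5 of 14 were higher and 0 lower (median 0.25). The keratin Krt8 gave 2885.8, 2556.9 and 3426.8 in exposed pools and 1559, 1443 and 1586.3 in control pools, all exposed pools being higher (0.94, adjusted p = 0.000884). Wnt7b acts from the neural tube too, where 7 of 12 roof plate and dorsal and 6 of 10 floor plate and ventral markers were lower. With the spike covariate 0 genes of the roof plate, midbrain, limb bud and surface ectoderm lists were called, and 1 was lower in each of the floor plate, tail bud and nephric lists. Msx1 was then at -0.48 (adjusted p = 0.26), En2 at -1.45 (0.0628), Dll1 at -0.72 (0.136) and Krt8 at 0.52 (0.195), none of them called, while Ntn1 (-1.75, 0.0312) and Foxc1 (-1.76, 0.0146) were called. The part of any of these tissues in the ligands' values was not tested.

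Markers of tissues outside the embryo were also read, since Wnt2 and Wnt7b are made in the placenta and allantois too. Of 26 placental, decidual and maternal markers on the array 6 passed the filter, with 1 higher and 1 lower. Their summed signal was 1802 to 1908 in exposed pools and 7326 to 8079 in control pools, without overlap. The gap lay in Prl8a2, a prolactin-family hormone of the decidua, with 39, 39.3 and 30.7 in exposed pools and 6522.1, 5698.9 and 6412.2 in control pools (-7.42, adjusted p = 9.67e-08). Without it the other 5 tested markers summed to 1763 to 1869 in exposed pools and 1420 to 1627 in control pools. Hsd11b2 gave the largest part of that sum and was not called (0.21, adjusted p = 0.148). The higher marker was Hand1 (0.61, adjusted p = 0.00789). Among the markers under the filter, Prap1 was also lower without overlap. It gave 8.1, 8.2 and 6.7 in exposed pools and 78.3, 90.2 and 99.8 in control pools. Ins2, Ctsq and Ceacam11, under the filter too, were higher in all exposed pools than in all control pools, Ctsq by a small margin. Ins2 gave 101.7, 18.1 and 27 in exposed pools and 5.6, 4.7 and 9.1 in control pools. Ctsq gave 2.8, 8.3 and 13.3 against 2.6, 1.8 and 2.4, and Ceacam11 15.3, 11.9 and 16.6 against 1, 6.8 and 8. These genes and Prap1 were dim and were named after their values were seen. Of 14 tested visceral yolk sac markers 2 were higher and 0 lower, with summed signals of 7733 to 11710 in exposed pools and 5248 to 5861 in control pools. The higher genes were Afp and Ttr, named after their values were seen, which also stand in the list of germ layer markers. Without them the other 12 summed to 1739 to 2342 in exposed pools and 1514 to 1803 in control pools, which overlapped. The part of these tissues in the lower Wnt7b and the higher Wnt2 signal, or in the signal of any other ligand, Wnt4 and Wnt5a included, was not tested.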

How the data were processed

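RNA of 3 diabetes-exposed and 3 control pools was labelled in 1 cycle, with 1 array for each pool. The authors deposited signal intensities on a linear scale, computed by GCOS and MAS5 out of perfect-match and mismatch probes (versions not given in the sources used here) and scaled so that each array had 1 mean: trimmed by 2% at each end, each averaged 500.0. Log2 was taken with no further scaling, so values are relative to the other transcripts of a pool. Detection calls were not used here, and the dimmest 33.3% of probe sets by mean log2 signal and 64 control probe sets were left out, leaving 30025. By the platform's annotation 34958 probe sets had 1 symbol, 932 several and 9211 none, and 34754 matched a gene of GRCm38.p6, which changed 0 symbols.

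Groups were compared with limma 3.58.1 (lmFit, eBayes with trend) in R 4.3.3, p-values were adjusted over the 30025 by Benjamini-Hochberg, and a probe set was called at an adjusted p under 0.05. A gene was read at the brightest of its tested probe sets. The rule for named genes took all members at every probe set, from each pathway or tissue list the gene with the smallest adjusted p in each direction, and Prl8a2, and 1 gene so named is not reported here. Members, lists, tests and alternatives were chosen with earlier results of these data known. The alternatives covered scaling (median centring, quantile, cyclic loess), the pseudocount (32), the dim filter (none, or 50%), eBayes without a trend, dropping probe sets of ambiguous target, averaging a gene's probe sets, leaving out pools, a replicate block, a spike covariate, and the methods' Welch test and regularized test (window 101, prior weight 10, written anew). The rewritten tests used log2 signals of the probe sets kept here, so their calls are not those of the study. The study itself listed Wnt7b 1420892_at and Wnt5a 1448818_at as lower in diabetes-exposed embryos. Single ratios and differences were compared with two-sided exact permutation tests. Precision is limited by the number of arrays, 6. On simulated data of this comparison with 30025 probe sets, 41 of 100 changed 2-fold and 66 of 100 changed 4-fold were called, with 5 false calls among 112. Only those probe sets were changed in the simulation, while 6550 lower and 4318 higher probe sets were called in the data. With so few calls the adjusted threshold was stricter than in the data, so these shares do not give the sensitivity of the comparison. Plots were made with matplotlib 3.10.9 under Python 3.11.15.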

Additional observations from a re-analysis of the deposited data

How the results depend on the processing

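With each ligand read at the gene level, 177 of 218 values under alternatives stayed on the same side of the threshold, 40 calls were lost and 1 was gained (Wnt6). The 177 include the uncalled ligands, which count there by staying uncalled, while all 40 losses were of called ligands. The 218 also include the methods' tests at an unadjusted p, which the ranges given above leave out. Of the values, 12 lay on the other side of 0, all of them of the uncalled Wnt1, Wnt3, Wnt3a and Wnt6, and 0 of called ligands. Against 7 lower and 1 higher ligand probe sets, 6550 and 4318 of all probe sets, and 49 and 11 pathway genes, median centring gave 4 and 2, 4003 and 8706, and 31 and 32. Quantile normalization gave 3 lower and 2 higher ligand probe sets, and loess normalization gave 2 higher. With the spike covariate the counts were 0 and 0, 334 and 29, and 9 and 0. With diabetes-exposed replicates 1 and 3 left out together they were 1 and 0, 3639 and 1467, and 39 and 4. With the methods' t-test after adjustment they were 0 and 0, 333 and 81, and 8 and 0, and unadjusted at p under 0.05 it gave 5 lower and 1 higher ligand probe sets. The regularized test after adjustment gave 0 higher ligand probe sets. eBayes with no trend gave 6 higher pathway genes, and averaging each gene's probe sets gave 70 lower and 4 higher. With each pool left out in turn, ligand probe sets were 4 to 8 lower and 0 to 1 higher, all probe sets 4375 to 7367 lower and 2731 to 4957 higher, and pathway genes 36 to 52 lower and 4 to 14 higher. The cause was not tested, beyond the smaller number of pools in the fits that leave pools out. Same-numbered pools did not deviate together (correlations of deviations 4.9e-05, 0.076 and 0.12), and the fit with a replicate block gave 7 lower and 1 higher ligand probe sets, 6687 and 4330 of all, and 49 and 11 pathway genes. With 3 pools per group, a difference at the dimmest ligands, such as Wnt3 with an interval of -1.12 to 0.92, was not detectable unless it was large.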
